A study of Homo sapiens with 9 samples.

Results

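The transcripts described here are those of the nuclear genes whose names begin with NDUF, the subunits and assembly factors of respiratory complex I. They were chosen by name from the deposited gene table: every protein-coding row with an NDUF name and no hyphenated readthrough name. This gave 47 genes of 37118 listed, of which 11 carry core names (NDUFS, NDUFV), 28 accessory names (NDUFA, NDUFB, NDUFC) and 8 the assembly factor name NDUFAF. A further 26 NDUF rows were left out, of which 22 are pseudogenes or other transcripts and 4 have hyphenated names (the readthrough NDUFC2-KCTD14 and the non-coding NDUFA6-DT, NDUFB2-AS1 and NDUFV2-AS1). RNA was sequenced from A375, an established human melanoma line described as wild type in the labels, given metformin at 0, 20 or 40 mM, with 3 libraries per dose and 9 in all. The labels give neither the duration of treatment nor the vehicle of the 0 mM cells. The question behind the series is how metformin acts on melanoma cells, and complex I is one of its best known targets.

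Complex I takes electrons from NADH and hands them through a flavin and a chain of iron-sulfur clusters to ubiquinone, and pumps protons out of the mitochondrial matrix as it does so. An N module oxidises NADH, a Q module reduces ubiquinone, and a membrane arm moves the protons. The core of the enzyme is inherited from bacteria and is encoded partly in the nucleus and partly in mitochondrial DNA, the accessory subunits surround that core, and assembly factors build the parts and then leave. Metformin is a biguanide that inhibits the enzyme at high concentration. Only transcripts were measured here, so the amount and activity of the protein complex are outside these data.

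Levels are given in FPKM, fragments scaled to transcript length and to library size, and changes as log2 fold change ± SE from edgeR's quasi-likelihood test on read counts, with 3 libraries per dose. A gene is said to have risen or fallen where its adjusted p, taken over 12394 tested genes, was under 0.05. The labels do not say whether the libraries of a dose are separate cultures. The p-values therefore measure the spread among these 9 libraries alone, and that spread may be technical. In RNA from a whole culture, fewer cells of a kind and less RNA per cell cannot be told apart. Library totals ran from 65738242 to 75629413 counts, of which the 47 genes took 0.262% to 0.298%. Markers matched a melanoma line that makes little pigment: SOX10, the neural crest transcription factor, was at 70.7 to 114 FPKM over the 9 libraries, AXL at 30.9 to 42.3 FPKM, and the pigment enzyme TYR at 0.0171 FPKM or less. Among 3 immune markers, whose summed level was 3.65 to 4.38 FPKM at 0 mM, 10.8 to 12.9 FPKM at 20 mM and 15.0 to 22.1 FPKM at 40 mM, nearly all came from CD68, a lysosomal glycoprotein. The defining immune markers PTPRC and CD3E stood at 0.0150 FPKM or less in every library. Summed levels in the same order of doses were 0.222 to 0.293, 0.222 to 0.370 and 0.628 to 0.810 FPKM for 3 endothelial markers and 6.95 to 7.77, 6.21 to 7.03 and 8.38 to 9.09 FPKM for 3 keratinocyte markers, nearly all of it KRT14, and 3 fibroblast markers summed to 0.290 FPKM or less. The part of CD68 and of these markers in the results was not tested.

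Replicate 3 of 40 mM stood apart from its dose. On the second principal component it lay at -22.6, while replicates 1 and 2 of 40 mM lay at 17.7 and 15.2, and its total of 65738242 counts was the lowest of the 9. In this library 33 of the 47 complex I genes (70.2%) lay below both other 40 mM libraries, as did 40.6% of all tested genes. The median complex I gene was lower there by 0.11 on the log2 scale than the mean of replicates 1 and 2, while the median of all tested genes was lower by less than 0.01. NDUFA1 (-0.69), NDUFAF8 (-0.60) and NDUFB6 (-0.50) lay furthest below the other replicates, and NDUFA4L2 (0.39), NDUFV3 (0.28) and NDUFB10 (0.20) furthest above. Replicate 3 of 0 mM leaned the same way, with 31 of the 47 genes (66%) below both other untreated libraries, beside 34.9% of all tested genes, and a median of -0.08. The complex I genes are short, with a median exon length of 2475 bases in GENCODE release 29 against 4593 bases over all tested genes with a length. Across the 47 genes, exon length and the deviation of this library had a Spearman correlation of 0.385, and across 12327 tested genes it was 0.0749. Genes are not independent replicates, and the part of this library in the results was not tested beyond leaving it out, which is done below.

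At 0 mM the 47 transcripts covered a range from 0.460 FPKM for NDUFA4L2 to 192 FPKM for NDUFS5, a small accessory subunit facing the intermembrane space. Their median was 22.7 FPKM, against 5.91 FPKM over all tested genes, so most of these transcripts were well expressed. The median was 22.7 FPKM among the core names, 25.6 FPKM among the accessory names and 12.4 FPKM among the assembly factors. After NDUFS5 the highest were NDUFB7 at 117 ± 4.10 FPKM, a membrane arm subunit, and NDUFA1 at 84.7 ± 3.76 FPKM, a small membrane arm subunit encoded on the X chromosome (SD, n = 3). NDUFB10 at 78.6 ± 1.93 FPKM and NDUFAB1, the mitochondrial acyl carrier protein, at 74.9 ± 4.89 FPKM came next, and NDUFB10 and NDUFAB1 did not differ beyond their spread. The 6 genes under 5 FPKM were NDUFA4L2, NDUFAF5, NDUFAF6, NDUFV3, NDUFS7 and NDUFA3. FPKM divides by the length of each gene model, which in GENCODE release 29 runs from 531 exon bases for NDUFB7 to 12268 for NDUFS1, so the order of levels depends on those models. All 47 genes passed the filter of a mean of at least 1 FPKM over the 9 libraries, but NDUFA4L2, at a mean of 1.17 FPKM, passed only through the treated libraries.

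In each comparison between doses most complex I transcripts were not called. At 20 mM against 0 mM, 5 of the 47 genes (10.6%) were called, 3 higher and 2 lower, while 31.6% of all tested genes were called, 16.3% higher and 15.2% lower. At 40 mM against 0 mM, 16 of the 47 (34.0%) were called, 5 higher and 11 lower, while 56.2% of all tested genes were called, 28.8% higher and 27.4% lower. At 40 mM against 20 mM, 8 of the 47 (17.0%) were called, all lower, while 29.3% of all tested genes were called, 14.3% higher and 15.1% lower. These counts go by name and take in NDUFA4, now placed in complex IV, and its relative NDUFA4L2. Without these 2 genes, 4 of 45 (8.89%) were called at 20 mM against 0 mM, 2 higher and 2 lower. At 40 mM 15 (33.3%) were called against 0 mM, 4 higher and 11 lower, and 8 (17.8%) against 20 mM, all lower. No complex I gene rose at 40 mM against 20 mM by edgeR, and none did at an unadjusted p under 0.05, by DESeq2 or by limma on log2(FPKM + 1).

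The differences were also small in size. The median absolute log2 fold change of the 47 genes was 0.06 at 20 mM against 0 mM, 0.13 at 40 mM against 0 mM and 0.11 at 40 mM against 20 mM, while over all tested genes it was 0.15, 0.24 and 0.14 in the same order. The median SE was 0.07 in both sets and all 3 comparisons. The signed median of the 47 genes was 0.03, -0.07 and -0.10, and that of all tested genes lay within 0.01 of 0 in each comparison. A negative change at 40 mM against 0 mM was seen in 31 of the 47 genes and a positive one in 16. Without replicate 3 of 40 mM these were 23 and 24, and the median became 0.02. The 3 comparisons share libraries, so they are not independent of one another.

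**Figure D1:**
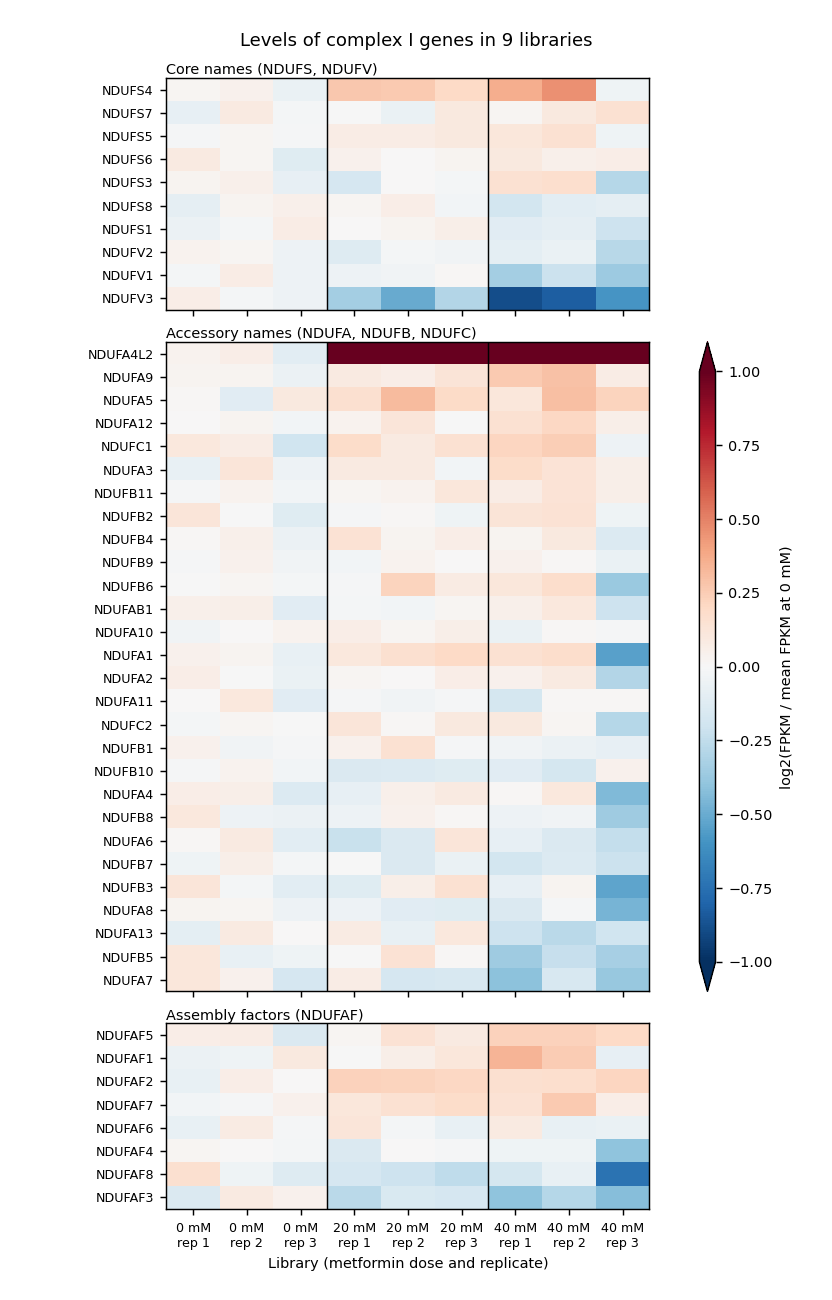
Level of the complex I genes in each of the 9 libraries, as log2 of its FPKM over its mean FPKM at 0 mM, with genes in rows grouped by class and ordered by their change at 40 mM. Colours stop at -1 and 1. NDUFA4L2 is beyond the scale in all treated libraries, NDUFV3 is the deepest blue row among the core names, and the last column, replicate 3 of 40 mM, is bluer than the other 40 mM columns in most rows.

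Of 11 core names, 5 fell at 40 mM against 0 mM and none was called higher, although 1 was higher at an unadjusted p under 0.05 and 1 by DESeq2. By limma on log2(FPKM + 1), whose share over all tested genes is not given here, 3 of the core names fell. In the same comparison 3 of 28 accessory names rose, NDUFA4L2 among them, and 5 fell, and 2 of 8 assembly factors rose and 1 fell. Over all tested genes 28.8% were called higher and 27.4% lower. The median log2 fold change was -0.10 among the core names, -0.07 among the accessory names and 0.04 among the assembly factors. Between libraries of a dose these class medians varied with a pooled SD of 0.07, 0.08 and 0.07 in the same order, and no test of the difference between classes was made. Without replicate 3 of 40 mM the accessory median became 0.02, the core median -0.05 and the assembly factor median 0.05.

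Counted by position in the enzyme, the calls at 40 mM against 0 mM took in 5 of 10 subunits of the N module, all lower (NDUFV3, NDUFV1, NDUFV2, NDUFS1 and NDUFA7). In the Q module 1 of 6 was lower and 2 were higher. In the proximal membrane arm 2 of 9 were lower, and in the distal membrane arm 2 of 11. The share of 50.0% lower in the N module stands beside 27.4% of all tested genes called lower and 28.8% called higher. Without replicate 3 of 40 mM, NDUFV3, NDUFV1, NDUFS1 and NDUFA7 stayed lower and NDUFV2 was not called (adjusted p = 0.0524). In that fit 2 other N module genes were called higher, NDUFS4 (0.38, adjusted p = 9.13e-05) and NDUFA12 (0.14, adjusted p = 0.0251). No order between modules was tested.

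**Figure D2:**
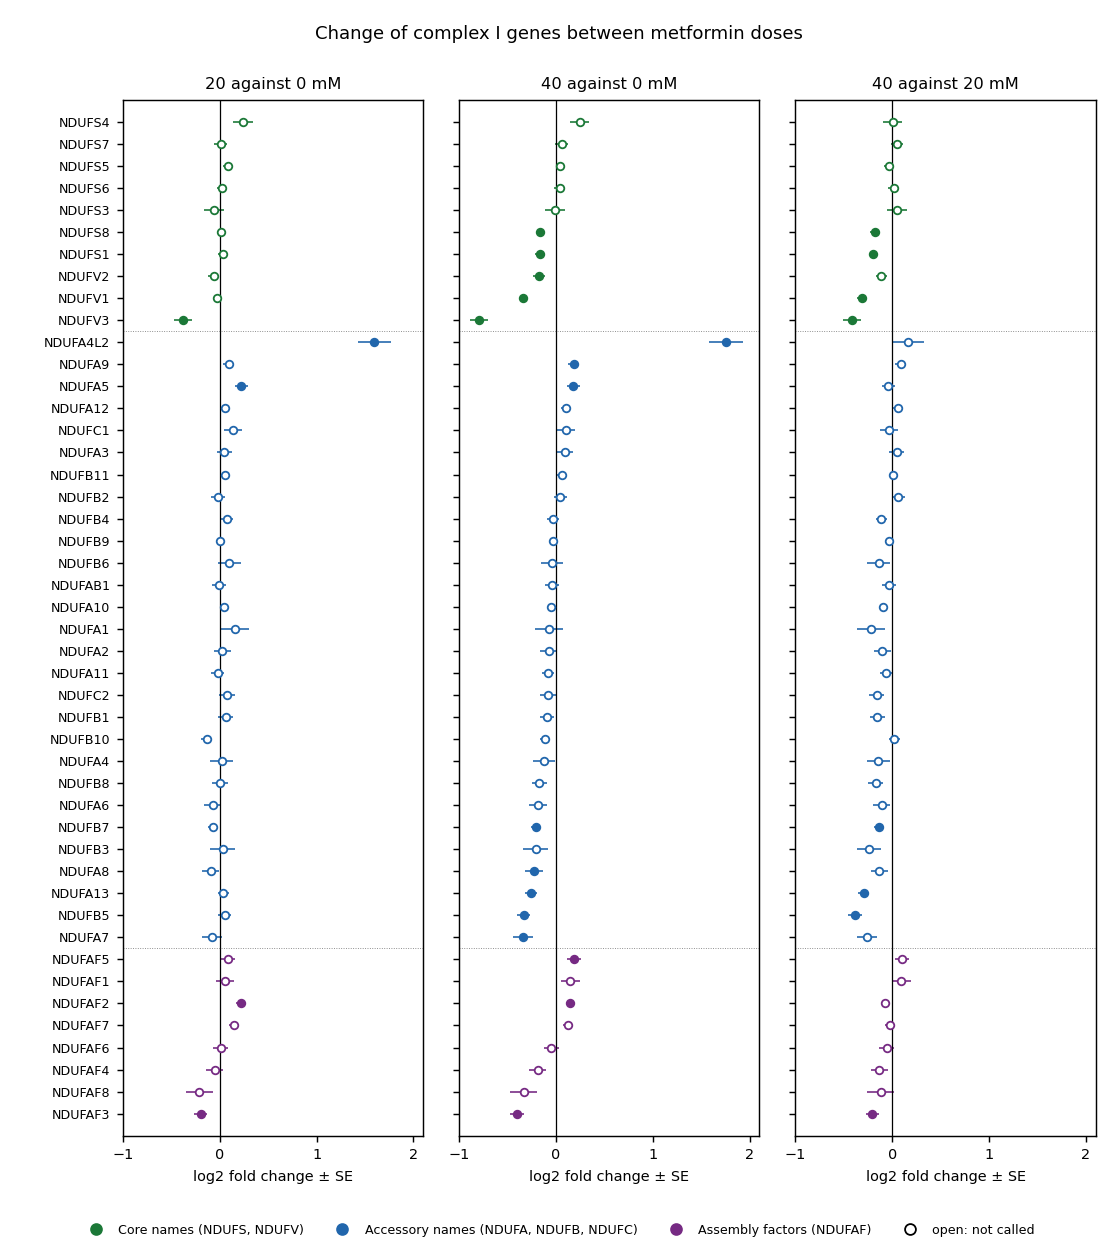
The log2 fold change ± SE of the complex I genes in the 3 comparisons between doses, with filled points where the adjusted p was under 0.05 and open points elsewhere. NDUFA4L2 stands at 1.59 and 1.75 against 0 mM, NDUFV3 at -0.38 and -0.80, and most other points lie near 0.

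The core subunits inherited from bacteria and encoded in the nucleus are 7. None was called at 20 mM against 0 mM, nor was any at an unadjusted p under 0.05, by DESeq2 or by limma. Of these 7, 4 fell at 40 mM against 0 mM, beside 27.4% of all tested genes called lower, and 3 at 40 mM against 20 mM, beside 15.1%. By limma, again without its share over all tested genes, 2 were called lower in each of these comparisons. Their median change at 40 mM against 0 mM was -0.16.

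NDUFV1 binds NADH and carries the flavin that first accepts its electrons (ENSG00000167792, chromosome 11, 67605653 to 67612554 in the coordinates of the deposited table, for which no source here names a build). It had 22.4, 23.9 and 21.9 FPKM at 0 mM, 21.9, 22.2 and 22.9 at 20 mM, and 17.95, 19.6 and 17.7 FPKM at 40 mM. The libraries at 0 and 20 mM overlapped, and all 3 at 40 mM lay below both. NDUFV1 fell by 0.34 ± 0.05 at 40 mM against 0 mM (adjusted p = 0.000175) and by 0.31 ± 0.05 at 40 mM against 20 mM (adjusted p = 0.00127), and it was not called at 20 mM against 0 mM (-0.03 ± 0.05, adjusted p = 0.729). Both falls were called under every alternative setting and with any 1 library left out.

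NDUFS1, the largest subunit, passes electrons from the flavin along several iron-sulfur clusters (chromosome 2, 206114817 to 206159444). It had 7.38, 7.56 and 8.10 FPKM at 0 mM, 7.72, 7.82 and 8.00 at 20 mM, and 7.11, 7.22 and 6.67 FPKM at 40 mM, again with the 40 mM libraries below all others. It fell by 0.17 ± 0.05 at 40 mM against 0 mM (adjusted p = 0.00914) and by 0.20 ± 0.05 at 40 mM against 20 mM (adjusted p = 0.00942). These falls, of 10.98% and 12.7%, were also called with any 1 library left out.

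NDUFV2, an iron-sulfur partner of NDUFV1, was at 24.6 ± 1.90 FPKM at 40 mM and 27.2 ± 0.838 FPKM at 0 mM (SD, n = 3 each) and fell by 0.18 ± 0.06 (adjusted p = 0.0244). NDUFS8, which carries clusters of the Q module, was at 9.69 ± 0.332 FPKM at 40 mM and 10.6 ± 0.542 FPKM at 0 mM and fell by 0.16 ± 0.05 (adjusted p = 0.016), and it fell by 0.18 ± 0.05 at 40 mM against 20 mM (adjusted p = 0.0204). Both genes kept these directions but lost their calls in several settings. For NDUFV2 the change at 40 mM against 0 mM was -0.12 without replicate 3 of 40 mM (adjusted p = 0.0524), and leaving out replicate 1 or 2 of the 0 mM libraries gave an adjusted p of 0.0826 or 0.0643. For NDUFS8 the adjusted p at 40 mM against 0 mM was 0.0609 without replicate 1 of 40 mM, and leaving out replicate 2 or 3 of the 0 mM libraries gave 0.0531 or 0.0596. Its fall against 20 mM was lost without replicate 1 of 40 mM (adjusted p = 0.0726) and when replicate 1 or 2 of the 20 mM libraries was absent (adjusted p = 0.0515 or 0.0877).

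Of the other conserved core subunits, NDUFS7 and NDUFS3 were not called in any comparison. NDUFS7, which carries the last iron-sulfur cluster before ubiquinone, was at 4.13 ± 0.198 FPKM at 40 mM and 3.88 ± 0.241 FPKM at 0 mM, a change of 0.06 ± 0.06 (adjusted p = 0.472). NDUFS3, a Q module subunit needed early in assembly, had 20.3, 20.5 and 15.0 FPKM at 40 mM against 18.6, 18.97 and 17.3 FPKM at 0 mM, so that its 40 mM libraries lay on both sides of the untreated ones (-0.01 ± 0.10, adjusted p = 0.946). Without replicate 3 of 40 mM, NDUFS3 was called higher at 40 mM against 20 mM (0.18, adjusted p = 0.0328). It also shares 721 exon bases with PTPMT1 on its own strand, which makes its count uncertain.

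The remaining 4 genes with core names, NDUFV3, NDUFS4, NDUFS5 and NDUFS6, encode accessory proteins in spite of those names. NDUFV3 is a small N module subunit beside NDUFV1 that is made in splice forms of different length, which counts per gene do not separate (ENSG00000160194, chromosome 21, 42879644 to 42913304). It had the largest fall of the 47 genes, with 3.72, 3.49 and 3.42 FPKM at 0 mM, 2.79, 2.49 and 2.89 at 20 mM, and 1.92, 1.995 and 2.35 FPKM at 40 mM. The 3 doses did not overlap, and each dose lay below the one before it. It fell by 0.38 ± 0.09 at 20 mM against 0 mM (adjusted p = 0.00983), at 40 mM against 0 mM by 0.80 ± 0.09 (adjusted p = 3.68e-05), a loss of 42.4%, and at 40 mM against 20 mM by 0.41 ± 0.09 (adjusted p = 0.00773). It rested on 1030 to 1994 counts per library, and all 3 calls held in the 18 alternatives in which it was tested, leaving out each library included. With a mean of at least 5 FPKM required it was not tested.

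NDUFS4, an N module subunit needed for a stable enzyme, was the highest positive change among the core names that was not called. It had 32.8, 33.4 and 31.0 FPKM at 0 mM, 38.9, 38.7 and 37.1 at 20 mM, and 41.7, 44.5 and 31.5 FPKM at 40 mM, so 1 library at 40 mM lay at the level of 0 mM. Its change at 40 mM against 0 mM was 0.24 ± 0.10 (adjusted p = 0.0588), and 0.38 without replicate 3 of 40 mM, where it was called (adjusted p = 9.13e-05). It was also called by DESeq2 (adjusted p = 0.0331), with a replicate block (adjusted p = 0.0266), with library totals (adjusted p = 0.0272) and at a mean of at least 5 FPKM (adjusted p = 0.0355). At 20 mM against 0 mM its change was 0.24 without overlap, and edgeR did not call it (adjusted p = 0.0942). In that comparison it was called higher with only the 6 libraries compared (adjusted p = 0.00282) and with a replicate block (adjusted p = 0.0391). The same held without replicate 3 of 40 mM (adjusted p = 0.00205). NDUFS5 was at 203 ± 14.0 FPKM at 40 mM and 192 ± 2.60 FPKM at 0 mM, a change of 0.04 ± 0.05 (adjusted p = 0.458), and NDUFS6, a zinc-binding subunit, was at 66.8 ± 1.02 FPKM at 40 mM and 63.6 ± 4.60 FPKM at 0 mM, a change of 0.04 ± 0.05 (adjusted p = 0.593).

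The sequences before the start sites of 3 genes show what the promoters of this family look like at the largest fall (NDUFV3), at a conserved core subunit that fell (NDUFS1) and at a subunit that rose (NDUFA9). They are the RefSeq windows of build GRCh38.p14 from 250 bases before to 50 bases after each start, and capitals mark matches to the motifs named below. NDUFV3 lies at chr21:42893059-42893358 on the plus strand and had no match, although the deposited table places the start of the gene upstream of this window. NDUFS1 lies at chr2:206159395-206159694 on the minus strand and NDUFA9 at chr12:4648864-4649163 on the plus strand.
NDUFV3: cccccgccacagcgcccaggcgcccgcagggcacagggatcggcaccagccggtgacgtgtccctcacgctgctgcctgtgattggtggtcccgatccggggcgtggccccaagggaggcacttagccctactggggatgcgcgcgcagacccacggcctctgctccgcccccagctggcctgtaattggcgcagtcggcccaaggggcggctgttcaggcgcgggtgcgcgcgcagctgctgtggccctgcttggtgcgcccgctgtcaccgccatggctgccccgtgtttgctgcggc
NDUFS1: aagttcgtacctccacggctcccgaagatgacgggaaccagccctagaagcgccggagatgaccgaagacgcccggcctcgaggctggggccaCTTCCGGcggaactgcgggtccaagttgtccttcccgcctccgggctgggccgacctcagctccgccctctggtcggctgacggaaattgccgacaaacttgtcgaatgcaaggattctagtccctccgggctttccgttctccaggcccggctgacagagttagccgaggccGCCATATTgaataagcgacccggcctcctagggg
NDUFA9: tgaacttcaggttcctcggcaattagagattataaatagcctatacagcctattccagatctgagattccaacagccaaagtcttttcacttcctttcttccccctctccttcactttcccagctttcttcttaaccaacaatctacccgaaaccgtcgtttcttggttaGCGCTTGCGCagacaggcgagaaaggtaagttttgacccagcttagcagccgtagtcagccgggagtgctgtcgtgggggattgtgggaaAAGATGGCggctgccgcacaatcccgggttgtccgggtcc

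The motifs were those of factors known to drive respiratory genes, read on both strands. For NRF1 this was its consensus with a free base near the middle, which is not the same as its reverse complement. The others were the ETS site of GABPA (CCGGAAG), the ERR site of ESRRA (AAGGTCA) and YY1 (AANATGGC). The composite site of the stress factor ATF4 (TGATGNAA) was read beside them in the same way. No match of one motif overlapped a match of another in the 3 printed windows. Of the 47 genes, 41 had a window in the RefSeq table. The YY1 letters stood in 12 of the 41 windows (29.3%) and in 6.58% of all 35116 windows of the same length. The NRF1 letters stood in 7 (17.1%) and in 5.78% of all, the ETS letters in 6 (14.6%) and in 10.3% of all, the ERR letters in 4 (9.76%) and in 3.92% of all, and the ATF4 letters in 1 (2.44%) and in 3.62% of all. NDUFS1 carried an ETS match (CTTCCGG) at base 94 of its window and a YY1 match (GCCATATT) at base 267, and NDUFA9 an NRF1 match (GCGCTTGCGC) at base 171 and a YY1 match (AAGATGGC) at base 261. Split by the call at 40 mM against 0 mM, the YY1 letters stood in 1 of 5 windows of genes that rose, 4 of 10 of genes that fell and 7 of 26 of genes that were not called, and the NRF1 letters in 2 of 5, 1 of 10 and 4 of 26 in the same order. These are matches of letters only and show no binding.

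The accessory gene with the largest change was NDUFA4L2 (ENSG00000185633, chromosome 12, 57234903 to 57240703). NDUFA4L2 is induced by the hypoxia factor HIF1 in other human cells and is known there for lowering complex I activity. It resembles NDUFA4, which was long counted with complex I and is now placed in complex IV. NDUFA4L2 had 0.473, 0.481 and 0.427 FPKM at 0 mM, 1.52, 1.26 and 1.49 at 20 mM, and 1.31, 1.64 and 1.92 FPKM at 40 mM. All 6 treated libraries lay above all untreated ones, and the 2 treated doses overlapped. It rose by 1.59 ± 0.17 at 20 mM against 0 mM (adjusted p = 8.61e-05) and by 1.75 ± 0.17 at 40 mM against 0 mM (adjusted p = 1.08e-05), which are ratios of 3.02 and 3.37, and it was not called between the treated doses (0.16 ± 0.16, adjusted p = 0.496). The counts behind it were 102 to 116 per library at 0 mM and 288 to 403 in treated libraries, so it stayed the lowest of the 47 transcripts at every dose. On the log2(FPKM + 1) scale, which shrinks the change of low genes, it was called too. NDUFA4L2 passed the filter of a mean of at least 1 FPKM only through the treated libraries, which favours a rise. Both calls against 0 mM were also made with no filter.

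NDUFA4 itself was not called in any comparison, with 25.7, 27.4 and 18.7 FPKM at 40 mM against 26.6, 26.5 and 23.2 FPKM at 0 mM (-0.12 ± 0.12, adjusted p = 0.396). Because reads could be split between near copies, the coding sequences of both genes were compared, from GENCODE release 29. NDUFA4 is coded between chr7:10933639-10940057 and NDUFA4L2 between chr12:57235566-57237085, both on the minus strand of GRCh38, and capitals mark bases that are the same in both after alignment.
NDUFA4: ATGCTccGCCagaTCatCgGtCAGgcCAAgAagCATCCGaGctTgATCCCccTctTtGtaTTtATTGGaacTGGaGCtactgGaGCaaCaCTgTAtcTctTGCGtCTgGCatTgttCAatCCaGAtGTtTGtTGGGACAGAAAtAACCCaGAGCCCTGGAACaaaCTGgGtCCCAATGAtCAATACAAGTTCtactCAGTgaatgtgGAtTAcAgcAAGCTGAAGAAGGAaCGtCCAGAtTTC
NDUFA4L2: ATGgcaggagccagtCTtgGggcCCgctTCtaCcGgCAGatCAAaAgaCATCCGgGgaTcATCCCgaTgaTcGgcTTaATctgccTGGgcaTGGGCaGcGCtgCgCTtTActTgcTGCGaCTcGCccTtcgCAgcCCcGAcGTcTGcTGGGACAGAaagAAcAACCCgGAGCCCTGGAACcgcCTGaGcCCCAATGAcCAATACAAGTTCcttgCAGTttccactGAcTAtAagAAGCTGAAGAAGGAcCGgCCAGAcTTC

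The sequences match in 160 of 266 aligned columns (60.2%), and the longest run shared by the full transcripts is 14 bases. The last 33 exon bases of NDUFA4L2 overlap those of SHMT2 on the opposite strand, and SHMT2, a mitochondrial serine enzyme at a mean of 72.9 FPKM, also rose, by 0.64 ± 0.04 at 20 mM against 0 mM (adjusted p = 8.07e-07) and by 0.36 ± 0.04 at 40 mM against 0 mM (adjusted p = 1.33e-05). No source here says which strand was counted, so the value of NDUFA4L2 is uncertain to that extent. SHMT2 fell by 0.28 ± 0.04 at 40 mM against 20 mM (adjusted p = 0.00041), a comparison in which NDUFA4L2 was not called. Whether reads of SHMT2 or NDUFA4 entered the value of NDUFA4L2 was not tested.

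NDUFB5, of the distal membrane arm, and NDUFA13, of the proximal arm and also known as GRIM-19, fell against both other doses (chromosome 3, 179604690 to 179627647, and chromosome 19, 19515736 to 19528198). NDUFB5 had 5.76, 5.07 and 5.17 FPKM at 0 mM, 5.33, 5.89 and 5.37 at 20 mM, and 4.18, 4.54 and 4.24 FPKM at 40 mM. NDUFA13 had 27.4, 31.4 and 29.5 FPKM at 0 mM, 31.2, 27.9 and 31.6 at 20 mM, and 25.5, 24.4 and 25.6 FPKM at 40 mM. In both genes the 0 and 20 mM libraries overlapped and all 40 mM libraries lay below them. NDUFB5 fell by 0.34 ± 0.07 at 40 mM against 0 mM (adjusted p = 0.00168) and by 0.39 ± 0.07 at 40 mM against 20 mM (adjusted p = 0.00239). NDUFA13 fell by 0.26 ± 0.06 (adjusted p = 0.00344) and by 0.30 ± 0.06 (adjusted p = 0.00443) in the same comparisons. These calls held in all alternatives, but NDUFA13 shares 437 exon bases with the overlapping gene AC011448 on its own strand, which was at 17.3 ± 4.90 FPKM at 40 mM and 12.6 ± 4.11 FPKM at 0 mM and not called (0.41 ± 0.27, adjusted p = 0.221), so the split of reads between them is uncertain.

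The other accessory names that fell at 40 mM against 0 mM were NDUFA7, NDUFA8 and NDUFB7. NDUFA7, of the N module, had 10.9, 13.0 and 11.1 FPKM at 40 mM against 15.7, 14.9 and 12.9 FPKM at 0 mM, so the groups touched at 1 library each. It fell by 0.34 ± 0.10 (adjusted p = 0.0141), with an adjusted p of 0.0605 without replicate 1 of 0 mM, and it shares 89 exon bases with RPS28 on the opposite strand and 456 with AC010323 on its own. It was not called at 40 mM against 20 mM (-0.26 ± 0.10, adjusted p = 0.0791) except by DESeq2 (adjusted p = 0.0448) and without replicate 2 of 40 mM (adjusted p = 0.0443). NDUFA8, a proximal arm subunit held by disulfide bonds, had 53.1, 58.4 and 42.5 FPKM at 40 mM against 59.8, 59.7 and 56.8 FPKM at 0 mM, and its fall of 0.23 ± 0.09 (adjusted p = 0.0486) was lost in 15 of 19 alternatives. Among single libraries it held only without replicate 2 of 40 mM, and leaving out replicate 3 of 40 mM gave a change of -0.11 (adjusted p = 0.0838). NDUFB7, which lies outside the rule by which genes were named and is given because it completes the count, fell by 0.21 ± 0.05 (adjusted p = 0.00308), with 103, 106 and 101 FPKM at 40 mM against 114, 121 and 115 FPKM at 0 mM. The groups did not overlap, and the call held in all 19 alternatives. Its fall of 0.14 at 40 mM against 20 mM (adjusted p = 0.0495) was lost in 16 of 19, among them leaving out any single library except replicate 2 of 20 mM (adjusted p up to 0.171).

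**Figure D3:**
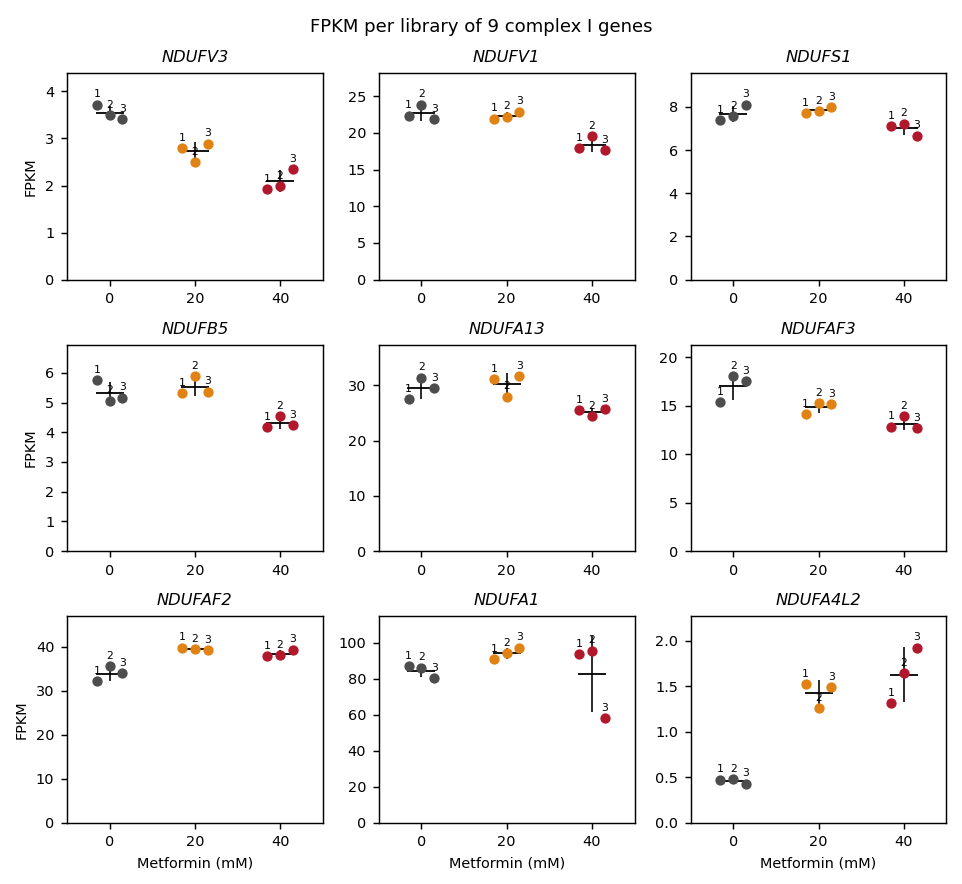
FPKM of 9 complex I genes in each library by metformin dose, on linear axes from 0, with replicate numbers beside the points and the mean ± SD of 3 libraries in black. NDUFV3 steps down at each dose, NDUFV1, NDUFS1, NDUFB5 and NDUFA13 are lower in the 40 mM libraries than in all others, NDUFAF3 steps down at each dose, NDUFAF2 and NDUFA4L2 are higher in all treated libraries, and NDUFA1 shows replicate 3 of 40 mM at 58.2 FPKM below all other libraries.

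NDUFA9 and NDUFA5, both of the Q module, were the accessory genes that rose beside NDUFA4L2. NDUFA9 sits at the joint of the matrix arm and the membrane arm, and had 8.07, 8.26 and 7.09 FPKM at 40 mM against 6.87, 6.86 and 6.46 FPKM at 0 mM, with no overlap. It rose by 0.18 ± 0.06 (adjusted p = 0.0193), and by 0.24 without replicate 3 of 40 mM (adjusted p = 0.000595), while leaving out replicate 1 or 2 of the 40 mM libraries gave an adjusted p of 0.0622 or 0.078, and leaving out replicate 3 of 0 mM gave 0.0744. NDUFA5 had 5.65, 5.19 and 6.01 FPKM at 0 mM, 6.29, 7.00 and 6.41 at 20 mM, and 6.06, 6.91 and 6.57 FPKM at 40 mM, so every treated library lay above every untreated one. It rose by 0.22 ± 0.07 at 20 mM against 0 mM (adjusted p = 0.0298) and by 0.18 ± 0.07 at 40 mM against 0 mM (adjusted p = 0.0429). The call at 20 mM was lost without replicate 1 or 2 of 0 mM or replicate 2 or 3 of 20 mM (adjusted p of 0.0546 to 0.122). The call at 40 mM was lost without any of these but replicate 2 of 20 mM, and also without replicate 1 of 20 mM or replicate 2 or 3 of 40 mM (adjusted p of 0.0512 to 0.168).

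The accessory gene of highest level that was not called was NDUFA1. It had 87.3, 86.3 and 80.4 FPKM at 0 mM, 91.0, 94.4 and 97.4 at 20 mM, and 93.9, 95.7 and 58.2 FPKM at 40 mM, so 2 of the 40 mM libraries lay above the untreated ones and the other one far below. Its change was -0.07 ± 0.14 at 40 mM against 0 mM (adjusted p = 0.711), and at 20 mM against 0 mM it was 0.15 ± 0.14 (adjusted p = 0.459), a comparison in which it was called without replicate 3 of 40 mM (adjusted p = 0.0277), since all libraries share 1 estimate of the spread. NDUFC2 was not called at 40 mM against 0 mM (-0.08 ± 0.08, adjusted p = 0.391), while the readthrough name NDUFC2-KCTD14, which shares 431 exon bases with it, had 10.6, 22.4 and 23.9 FPKM at 40 mM against 11.2, 12.8 and 8.69 FPKM at 0 mM (0.77 ± 0.26, adjusted p = 0.0282), so how reads were divided between these models is uncertain. Over all 47 genes the FPKM of the groups did not overlap in 19 genes at 40 mM against 0 mM, 8 higher and 11 lower, beside 61.1% of all tested genes, of which 34.4% were higher and 26.8% lower. There were 8 higher and 5 lower without overlap at 20 mM against 0 mM, beside 50.5% of all tested genes (25.6% higher and 24.9% lower). The same counts were 2 and 9 at 40 mM against 20 mM, beside 43.9% (25.9% higher and 18.0% lower).

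Calls among the assembly factors went in both directions. NDUFAF3, which with NDUFAF4 builds the Q module onto the membrane, fell with dose (chromosome 3, 49020459 to 49023495). It had 15.4, 18.1 and 17.6 FPKM at 0 mM, 14.1, 15.3 and 15.2 at 20 mM, and 12.8, 13.9 and 12.7 FPKM at 40 mM, with no overlap between any doses. It fell by 0.40 ± 0.07 at 40 mM against 0 mM (adjusted p = 0.000514), a call that held in all alternatives. Its steps at 20 mM against 0 mM (-0.20 ± 0.07, adjusted p = 0.0499) and at 40 mM against 20 mM (-0.21 ± 0.07, adjusted p = 0.0439) were each lost in 13 of 19 alternatives. The first was lost without any single library except replicate 1 of 0 mM and replicate 3 of 40 mM (adjusted p up to 0.177), and the second without any except replicate 1 of 0 mM, replicate 1 of 20 mM and replicate 2 of 40 mM (adjusted p up to 0.132). It overlaps the exons of DALRD3 on the opposite strand, which was not called in any comparison.

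NDUFAF2, a relative of the subunit NDUFA12 that attends a late step of assembly, had 32.3, 35.6 and 34.0 FPKM at 0 mM, 39.8, 39.6 and 39.2 at 20 mM, and 37.8, 38.2 and 39.4 FPKM at 40 mM. All treated libraries lay above all untreated ones. It rose by 0.22 ± 0.05 at 20 mM against 0 mM (adjusted p = 0.00559), called in all alternatives, and by 0.15 ± 0.05 at 40 mM against 0 mM (adjusted p = 0.0206), with an adjusted p of 0.0857 without replicate 1 of 0 mM. NDUFAF5, which modifies the core subunit NDUFS7, was at 2.99 ± 0.0329 FPKM at 40 mM and 2.56 ± 0.215 FPKM at 0 mM and rose by 0.19 ± 0.07 (adjusted p = 0.0461), a call lost in 11 of 18 alternatives and without any single library except replicate 1 of 0 mM (adjusted p up to 0.164, with a change of 0.12, without replicate 3 of 0 mM).

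The other 5 factors were not called by edgeR. NDUFAF8, a partner of NDUFAF5, had 26.6, 28.6 and 18.04 FPKM at 40 mM against 33.6, 29.2 and 27.4 FPKM at 0 mM (-0.33 ± 0.14, adjusted p = 0.0628). It was called lower at 40 mM against 0 mM by DESeq2 (-0.34, adjusted p = 0.0209), with a replicate block (-0.35, adjusted p = 0.0191) and without replicate 2 of 40 mM (-0.46, adjusted p = 0.0221). At 20 mM against 0 mM it was called lower with only the 6 libraries compared (-0.21, adjusted p = 0.0444) and without replicate 3 of 40 mM (-0.21, adjusted p = 0.0368). NDUFAF7, a mitochondrial methyltransferase, was at 12.7 ± 0.854 FPKM at 40 mM and 11.4 ± 0.295 FPKM at 0 mM (0.13 ± 0.05, adjusted p = 0.0579), and was called in 5 alternatives, among them limma on log2(FPKM + 1) (0.15, adjusted p = 0.0281) and leaving out replicate 3 of 40 mM (0.17, adjusted p = 0.0121). NDUFAF1, a founding member of the complex that assembles the membrane arm, was at 15.2 ± 2.25 FPKM at 40 mM and 13.4 ± 0.815 FPKM at 0 mM (0.15 ± 0.10, adjusted p = 0.213), and was likewise called without that library (0.26, adjusted p = 0.00616). NDUFAF4 (-0.19 ± 0.09, adjusted p = 0.0927) and NDUFAF6 (-0.05 ± 0.08, adjusted p = 0.601) complete the class.

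Replicate 3 of 40 mM carried weight in the counts as a whole. Without it, 8 of the 47 genes were called higher and 10 lower at 40 mM against 0 mM, with 12 of the 16 original calls still made and 6 added (NDUFS4, NDUFS5, NDUFA12, NDUFAF1 and NDUFAF7 higher, NDUFB10 lower). The calls lost were those of NDUFV2, NDUFA8, NDUFA5 and NDUFAF5. At 20 mM against 0 mM, where it enters only through the shared estimate of the spread, 6 were higher and 4 lower. Between the treated doses 3 were higher at 40 mM (NDUFA9, NDUFS3 and NDUFAF1) and 6 lower. Calls over all tested genes moved as well. Leaving out 1 library at a time gave 2731 to 4966 at 20 mM against 0 mM, beside 3911 in the main fit. The ranges were 6049 to 7135 beside 6962 at 40 mM against 0 mM, and 2408 to 4065 beside 3637 at 40 mM against 20 mM. The shifts in the complex I counts were not set apart from these. Scaling mattered too: with library totals alone, 8 were higher and 8 lower at 40 mM against 0 mM, and 4 were higher and 1 lower at 20 mM against 0 mM.

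The 7 subunits of complex I encoded in mitochondrial DNA form the proton-pumping core of the membrane arm, and their transcripts were called in both directions. At 40 mM against 0 mM 4 of the 7 were called (57.1%), beside 56.2% of all tested genes. At 20 mM against 0 mM 2 were called (28.6%), beside 31.6%. MT-ND1 rose by 0.53 ± 0.15 at 40 mM against 0 mM (adjusted p = 0.0101), while MT-ND3 fell by 0.30 ± 0.09 (adjusted p = 0.013, and 0.0555 without replicate 3 of 0 mM), MT-ND5 by 0.24 ± 0.07 (adjusted p = 0.013) and MT-ND6 by 0.26 ± 0.10 (adjusted p = 0.0466). By limma on log2(FPKM + 1) only 1 of these 3 falls was called, that of MT-ND3. MT-ND5 was not followed singly through the other alternatives. MT-ND1 had 1629, 1707 and 2406 FPKM at 40 mM against 1073, 1282 and 1544 FPKM at 0 mM, with no overlap. Without replicate 3 of 40 mM its change became 0.32 (adjusted p = 0.0199). MT-ND6, on the other strand of the mitochondrial genome, had 565, 680 and 754 FPKM at 40 mM against 783, 716 and 832 FPKM at 0 mM, with overlap, and its call was lost in 13 alternatives, among them leaving out any single library except replicate 2 of 0 mM, replicate 2 of 20 mM and replicate 3 of 40 mM (adjusted p up to 0.154). Without replicate 1 of 40 mM the change of MT-ND6 was -0.15. MT-ND4 rose by 0.57 ± 0.13 at 20 mM against 0 mM (adjusted p = 0.00758) and MT-ND4L, which shares its transcript, by 0.55 ± 0.15 (adjusted p = 0.0158), and at 40 mM neither was called against 0 mM. The libraries held RNA captured by its poly(A) tails, and all mitochondrial transcripts together took 2.76% to 3.53% of counts at 0 mM, 3.63% to 3.77% at 20 mM and 3.01% to 4.36% at 40 mM, where replicate 3 had the highest share. Its part in these results was not tested beyond leaving it out.

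Of 14 assembly factors without NDUF names, 5 rose and 6 fell at 40 mM against 0 mM (78.6%, beside 56.2% of all tested genes). At 20 mM against 0 mM 3 rose and 2 fell (35.7%, beside 31.6%), and at 40 mM against 20 mM 1 rose and 3 fell (28.6%, beside 29.3%). FOXRED1, which acts late in assembly, had 5.08, 5.49 and 4.68 FPKM at 40 mM against 7.28, 8.08 and 7.00 FPKM at 0 mM and fell by 0.59 ± 0.07 (adjusted p = 5.12e-05). TMEM126B, which works with NDUFAF1 on the membrane arm, had 24.3, 24.3 and 20.1 FPKM at 40 mM against 15.4, 14.9 and 15.6 FPKM at 0 mM and rose by 0.55 ± 0.07 (adjusted p = 9.2e-05). TMEM186, another member of that complex, fell by 0.39 ± 0.13 (adjusted p = 0.0265), a call lost without replicate 3 of 40 mM (-0.24, adjusted p = 0.058), and when replicate 1 or 2 of the 0 mM libraries was absent (adjusted p = 0.0778 or 0.0716). Genes of the same assembly complex were thus called in opposite directions.

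In the other respiratory complexes the calls at 40 mM against 0 mM were falls by edgeR, with none higher even at an unadjusted p under 0.05, by DESeq2 or by limma. They were 2 of 4 subunits of complex II, 4 of 9 of complex III, 1 of 10 of complex IV and 10 of 15 of complex V, beside 27.4% of all tested genes called lower. By limma on log2(FPKM + 1) the lower calls were 1, 1, 0 and 9 in the same order. The share of all tested genes called by limma is not given, so whether this drop is particular to these complexes cannot be told. The call of SDHB in complex II (adjusted p = 0.0429) was lost in 14 of 19 alternatives, as was that of UQCRQ in complex III (adjusted p = 0.0443), and that of COX6B1 in complex IV (adjusted p = 0.0407) in 12 of 19. The median log2 fold change was -0.08, -0.09, -0.04 and -0.20 in the same order, beside -0.07 for the 47 complex I genes and 0.00 for all tested genes. Without replicate 3 of 40 mM the complex I median became 0.02, and the medians of the other complexes in that fit are not given. SDHA, the flavoprotein of complex II, was at 8.04 ± 0.322 FPKM at 40 mM and 10.999 ± 0.153 FPKM at 0 mM and fell by 0.49 ± 0.04 (adjusted p = 4.56e-06). UQCRFS1, the iron-sulfur subunit of complex III, fell by 0.30 ± 0.07 (adjusted p = 0.00383). In ATP synthase, ATP5PD of the peripheral stalk fell by 0.57 ± 0.06 (adjusted p = 1.33e-05), ATP5F1A, a subunit of its head, by 0.40 ± 0.07 (adjusted p = 0.000366), and ATP5F1C of the rotor by 0.34 ± 0.05 (adjusted p = 0.000283). Among these subunits, 2 of complex II and 3 of complex V fell and 1 of complex IV rose at 20 mM against 0 mM. Of all tested genes 15.2% were called lower and 16.3% higher in that comparison. Each of the 3 complex V calls was lost without replicate 1 of 0 mM, with an adjusted p of 0.0602 for ATP5PD, 0.12 for ATP5F1A and 0.104 for ATP5F1C. Over the 19 alternatives the calls of ATP5F1A, ATP5F1C and SDHB at 20 mM against 0 mM were each lost in 12, and that of ATP5PD in 4.

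**Figure D4:**
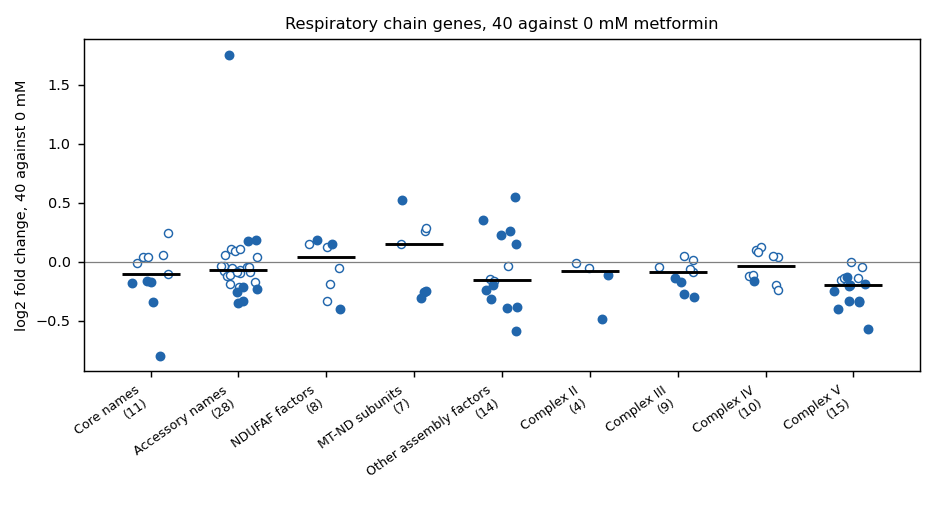
The log2 fold change at 40 mM against 0 mM of the nuclear complex I genes by class, the 7 mitochondrially encoded subunits, other assembly factors and the subunits of complexes II to V. Each point is a gene, filled where called, the bar is the median of the list and the number of genes stands under each name. The complex V list has the lowest median, at -0.20, and the core and accessory complex I names have medians of -0.10 and -0.07.

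Among 7 regulators of respiratory genes, 6 were tested and 2 fell at 40 mM against 0 mM (33.3%, beside 27.4% of all tested genes called lower). NRF1, whose site was searched for above, was at 3.48 ± 0.0926 FPKM at 40 mM and 4.83 ± 0.168 FPKM at 0 mM and fell by 0.51 ± 0.06 (adjusted p = 5.23e-05). YY1 was at 10.6 ± 0.134 FPKM at 40 mM and 11.5 ± 0.201 FPKM at 0 mM and fell by 0.15 ± 0.04 (adjusted p = 0.00408). Both also fell at 20 mM against 0 mM, where 15.2% of all tested genes were called lower. NRF1 fell by 0.18 ± 0.06 (adjusted p = 0.0497, and up to 0.168 when any single library but replicate 3 of 40 mM was left out). YY1 fell by 0.16 ± 0.04 (adjusted p = 0.00591). PPARGC1A, the coactivator PGC-1alpha, lay below the filter at a mean of 0.0907 FPKM and was not tested, with 11, 8 and 22 counts at 0 mM, 56, 35 and 63 at 20 mM, and 213, 136 and 188 counts at 40 mM.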

How the data were processed

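RNA of A375 cells was sequenced as 9 libraries, 3 at each of 0, 20 and 40 mM metformin. TRIzol extracts were captured with oligo(dT), made into strand-specific libraries with dUTP and read as paired ends, per the labels' protocols. StringTie 2.1.6 is named in the submitters' processing notes with no role. Not given in the sources used here are the aligner, build, annotation and strand of counting. The authors deposited 1 table with whole-number read counts per gene that are not normalized, and FPKM values of the same genes, per the file headers.

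From the deposited counts, edgeR 4.0.16 (R 4.3.3) fitted all 9 libraries together with TMM scaling and dose as the only term, over the 12394 genes with a mean of at least 1 FPKM. P-values were adjusted by Benjamini-Hochberg over all of these genes, with a threshold of 0.05, and the fit was tested on simulated data. At 20 mM against 0 mM, 40 mM against 0 mM and 40 mM against 20 mM it recovered 36%, 40% and 32% of simulated 1.25-fold changes. Of 2-fold changes it recovered 84%, 96% and 88% in the same order. A gene that was not called may thus still have changed by a small amount. FPKM values are given as levels only, except in limma 3.58.1 on log2(FPKM + 1) and log2(FPKM + 0.1). The other alternatives were DESeq2 1.42.0, library totals, median-of-ratios scaling, no filter, a mean of at least 5 FPKM, only the 6 libraries compared, a replicate block, a threshold of 0.01 and leaving out each library. No pair of libraries agreed within sampling noise.

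The members and lists were chosen with earlier results of these data known. Genes were named by a rule: the 7 conserved core subunits, up to 4 rises and 4 falls of largest size among the called genes of each class at 40 mM against 0 mM, up to 2 of each in the other comparisons, the gene of highest level not called in each class, NDUFA4 and NDUFA4L2, and up to 3 called genes of each other list. Genes that were named outside this rule are NDUFB7, NDUFS4, NDUFS6, NDUFC2, NDUFAF1, NDUFAF4, NDUFAF6, NDUFAF7, MT-ND5, MT-ND4, MT-ND4L and genes given only as examples of level or overlap, chosen after their values were seen. Gene IDs of all 47 members matched GENCODE release 29, which gave exon lengths, overlaps and coding sequences on GRCh38. A single gene is counted in these sets but not reported here. Promoter windows came from RefSeq (GRCh38.p14) for 41 of the 47.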

Additional observations from a re-analysis of the deposited data

How the results depend on the processing

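No called change of a named gene reversed its direction under the alternatives run. At 20 mM against 0 mM the 3 higher complex I genes became 6 with only the 6 libraries compared. The 2 lower ones became 1 with no filter, with library totals, in both limma fits and at a threshold of 0.01, 0 at a mean of at least 5 FPKM and 4 with only the 6 libraries compared. At 40 mM against 0 mM the 5 higher ones became 1 with no filter and at a threshold of 0.01, 2 with only the 6 libraries compared and 8 with library totals, and the 11 lower ones became 7 at a threshold of 0.01. At 40 mM against 20 mM the 8 lower ones became 5 at a mean of at least 5 FPKM, in both limma fits and at a threshold of 0.01. Over all genes, at least 5 FPKM left 2517, 4245 and 2367 calls in the 3 comparisons, of fewer genes tested, and a threshold of 0.01 left 2167 at 20 mM against 0 mM and 1858 at 40 mM against 20 mM. Elsewhere the cause was not tested.

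Leaving out 1 library gave 2 to 6 higher and 1 to 4 lower complex I genes, 2731 to 4966 calls over all genes and a core median of -0.019 to 0.031 at 20 mM against 0 mM. It gave 2 to 8 higher, 8 to 12 lower, 6049 to 7135 calls and an accessory median of -0.11 to 0.022 at 40 mM against 0 mM. At 40 mM against 20 mM it gave 0 to 3 higher, 6 to 9 lower and 2408 to 4065 calls, with 2408 without replicate 2 of 20 mM. The labels give no pairing of libraries between doses. The deviations of same-numbered libraries correlated at -0.10 to 0.19 (median 0.056), and those of differently numbered ones at -0.19 to 0.12 (median -0.015). These ranges overlap, so they cannot show whether replicate numbers mark a shared batch. With a replicate block, 4 complex I genes were higher and 2 lower at 20 mM against 0 mM. The counts were 7 and 12 at 40 mM against 0 mM, and 0 and 7 at 40 mM against 20 mM. The share of all tested genes called with this block is not given, so these counts describe the setting and not complex I. Low counts limit NDUFA4L2, with 102 to 116 counts per untreated library.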
